A study of Mus musculus with 6 samples.

Results

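The genes of arginine and nitric oxide metabolism were followed in sorted mouse macrophages: 10 genes of the 21936 in the deposited tables, chosen by symbol for their role, with earlier results of these data known. They comprise the arginine importer Slc7a2, the inducible nitric oxide synthase Nos2, the cofactor gene Gch1, the recycling enzymes Ass1 and Asl, the arginases Arg1 and Arg2, and the polyamine genes Odc1, Srm and Sat1. RNA was sequenced in 2 groups of 3 libraries. The libraries labelled WT came from mice with a loxP-flanked Alkbh5 gene (ALKBH5flox/flox) on an APOE-/- background, and the libraries labelled CKO from ALKBH5flox/flox, Lyz2-Cre, APOE-/- mice. Both groups thus carried the floxed Alkbh5 and lacked Apoe by label, and all mice ate a high-fat diet for 4 months. Alkbh5 encodes a demethylase of N6-methyladenosine in RNA, and the series asked how its loss in macrophages bears on macrophage senescence and the chemokine gene Ccl5 in atherosclerosis. Cre expressed from Lyz2 acts in macrophages, monocytes and neutrophils, so the deletion is not limited to macrophages. Whether each library stands for a mouse of its own is not given in the sources used here, and a p-value below reflects no more than the scatter among these 6 libraries, which could be technical.

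The libraries held 15422154 to 18418903 reads assigned to genes, at which 3 reads, the limit that a count of 0 allows, make 0.163 to 0.195 FPKM in a gene of 1 kilobase. The targeted gene went against its label: Alkbh5 read 3.77 to 3.95 FPKM in the WT-labelled libraries and 8.50 to 9.15 in the CKO-labelled libraries (FPKM, reads scaled to gene length and library depth). Apoe, labelled as null in both groups, read 1607 to 1665 FPKM in the WT-labelled libraries and 89.6 to 98.1 in the CKO-labelled libraries. Directions below are those of the labels, and the genotype behind them was not checked by these genes. All 14 macrophage markers reached a mean of 1 FPKM in at least 1 group, with a summed level of 17189 to 19103 FPKM in the WT-labelled libraries and 9600 to 10017 in the CKO-labelled libraries. Most of that sum is Lyz2 (14327 to 16230 against 6405 to 6797 FPKM), and the list went both ways: 8 of the 14 were lower and 6 higher, among them Adgre1 (222 ± 2.98 to 778 ± 19.5 FPKM; SD, n = 3) and Cd14 (189 ± 5.21 to 693 ± 14.7). Summed neutrophil markers (13 genes, 11 of them with a mean of at least 1 FPKM in a group) read 677 to 975 against 274 to 282 FPKM, with 8 of 10 tested lower (S100a8, S100a9, Ngp and Ltf among them) and 2, Lcn2 and Mmp8, higher. Beside these counts for macrophage and neutrophil markers, 50.5% of all 9953 tested genes were lower and 30.5% higher (limma adjusted p under 0.05). Genes were tested if they passed a filter of 1 FPKM or more in 3 or more libraries. Ngp, Ltf, Elane, Retnlg and the macrophage marker Cd163 passed only through the libraries labelled WT and so had to read lower in the others. The macrophage marker Marco passed only through the libraries labelled CKO and so had to read higher there. Summed endothelial markers (8 genes, 3 with a mean of at least 1 FPKM in a group) read 26.8 to 27.6 against 8.02 to 9.19 FPKM. Most of that sum in the WT-labelled libraries is Vwf (19.8 ± 0.165 to 2.78 ± 0.264 FPKM). Of 3 tested, 2 were lower, Vwf and Kdr, and 1, Pecam1, was higher (0.880 ± 0.0471 to 1.47 ± 0.175 FPKM). Pecam1 passed the filter only through the libraries labelled CKO and so had to read higher there. Cdh5, which defines endothelium, averaged 0.0623 and 0.156 FPKM. The lists for smooth muscle and fibroblasts, T and NK cells, and B cells each summed to at most 4.69 FPKM in any library. The part of these cells in the results was not tested. Of 10 hepatocyte markers, which stand for a cell rich in arginase and urea cycle enzymes, 6 were at 0 in all 6 libraries, Alb and Ttr among them, and the list summed to at most 0.815 FPKM. In bulk samples fewer cells of a type and less RNA per cell cannot be told apart.

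Arginine stands at a branch point in macrophages. Nitric oxide synthase turns it into nitric oxide and citrulline, with tetrahydrobiopterin as a cofactor, and the citrulline can be made into arginine again. Arginase instead splits arginine into urea and ornithine, from which ornithine decarboxylase starts the polyamines putrescine, spermidine and spermine. In mouse macrophages Nos2 is a classical gene of activation by microbial products and interferon-gamma, and Arg1 one of activation by interleukin-4, although microbial products can induce Arg1 as well.

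The genes that import arginine, turn it into nitric oxide and recycle citrulline were mostly higher in the CKO-labelled libraries, Arg1 and Arg2 were higher too, and the polyamine genes went both ways. All 10 genes passed the filter for testing, 1 FPKM or more in 3 or more libraries. Nos2 and Arg1 passed it only through the libraries labelled CKO and so had to differ. At a limma adjusted p under 0.05, 7 of the 10 genes, Nos2 and Arg1 among them, were higher and 3 lower in the CKO-labelled libraries. Of all 9953 tested genes 30.5% were higher and 50.5% lower by that rule, so a call by itself says little here. For each of the 10 genes the highest library of one group lay below the lowest of the other, as for 82.5% of all tested genes. For Nos2 and Arg1 the filter made this certain. Of the 8 genes other than Nos2 and Arg1, 4 (Slc7a2, Ass1, Gch1 and Arg2) rose by at least 1 on the log2 scale, as did 8.35% of tested genes, and 1 (Slc7a2) by at least 4, as did 0.713%. Sat1 alone fell by at least 1, against 10% of tested genes. The median log2 fold change was 0.97 over these 8 genes and 1.62 with Nos2 and Arg1, beside -0.14 over all tested genes.

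**Figure D1:**
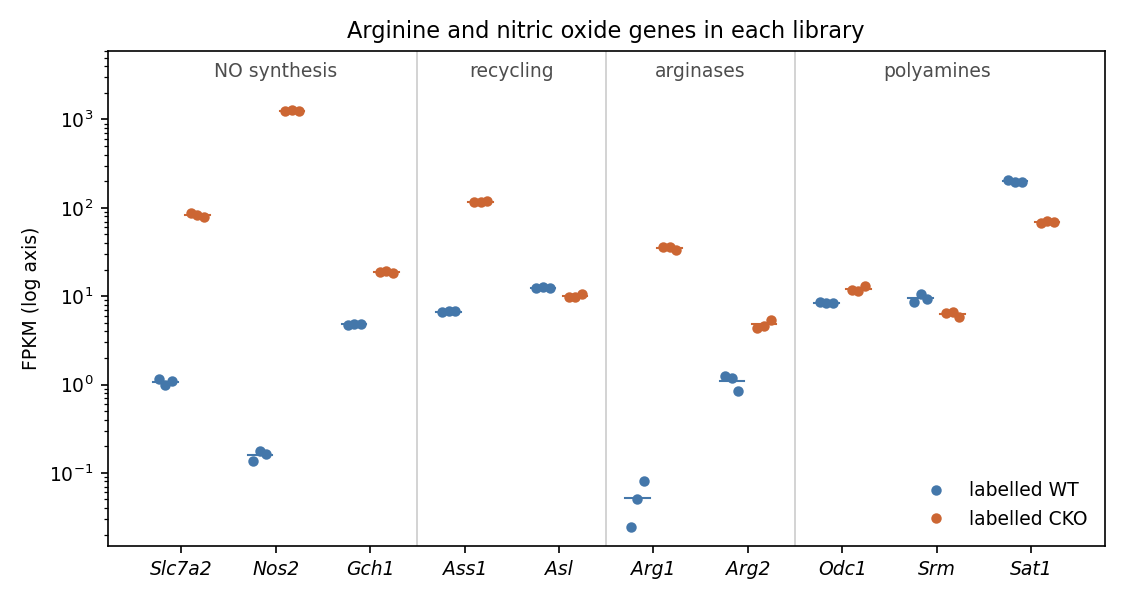
FPKM of the 10 genes in each library on a log axis, with 3 points and a mean line for each group (blue, labelled WT; orange, labelled CKO), ordered by role. Nos2 spans from under 0.2 to over 1240 FPKM between the groups, Arg1, Slc7a2 and Ass1 are also higher in the CKO-labelled libraries, and Sat1, Asl and Srm are lower.

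Nos2, which makes nitric oxide from arginine, read 0.135, 0.176 and 0.162 FPKM in the WT-labelled libraries and 1257, 1277 and 1241 in the CKO-labelled libraries. It lies on chromosome 11, from 78920787 to 78960254 on the plus strand (mm10, as are all positions here). The gene was close to silent in one group and one of the most abundant in the other, where its mean ranked 19 among all 21936 genes against 11625 in the WT-labelled libraries. In reads it was counted 11, 14 and 12 times in the WT-labelled libraries and 95597, 87455 and 98033 times in the CKO-labelled libraries, so that it took 0.558% of all reads there. The log2 fold change on log2(FPKM + 1), a scale that understates changes of genes near 0, was 10.09 (limma adjusted p = 1.72e-18, SE 0.0325). Nos2 passed the filter only through the libraries labelled CKO, so its p-value is not a test of whether it differed. The ratio of read shares was 7999, with an exact 95% binomial interval of 5803 to 11361 that covers counting error only.

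Slc7a2 encodes CAT2, a transporter that brings arginine into activated macrophages (chromosome 8, 40862396 to 40922308, plus strand). It read 1.14, 1.00 and 1.08 FPKM in the WT-labelled libraries and 87.5, 83.5 and 78.7 in the CKO-labelled libraries. All 3 libraries labelled CKO lay above all labelled WT, by 77.4-fold in the means (log2 fold change 5.34, limma adjusted p = 7.20e-15, SE 0.0499). The gene makes a high-affinity and a low-affinity transporter from alternative exons, and a value per gene cannot tell them apart. A long noncoding gene on the opposite strand, Gm26584, shares 635 of its 9135 exonic bases.

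Gch1, the first enzyme of tetrahydrobiopterin synthesis, rose less (chromosome 14, 47153895 to 47189413, minus strand). Its FPKM was 4.77, 4.89 and 4.85 in the WT-labelled libraries and 19.0, 19.1 and 18.2 in the CKO-labelled libraries. Replicates lay close together and the groups far apart, with a log2 fold change of 1.76 (limma adjusted p = 9.70e-12, SE 0.0427), or 3.88-fold in the means. RefSeq promoters (GRCm38.p6) were given for 4 of the 10 genes, Gch1, Ass1, Odc1 and Sat1. Those of Gch1 and Ass1, which rose, and of Sat1, which fell, are shown to let the sequences before genes that moved in opposite directions be compared. Each window runs from 250 bases before to 50 after the annotated start, 5′ to 3′ on the gene's strand, and capitals mark matches on either strand to 8 motifs. Searched were the E-box CACGTG, the core of the cAMP response element, TGACG, the CCAAT box of factor NF-Y, the GC box GGGCGG, the TATA box as TATAAA, the STAT motif TTCNNNGAA, the interferon-stimulated response element (GAAA, a pair of any bases, and GAAA again) and the NF-kB consensus. Matches to different motifs did not overlap in these windows. The Gch1 window is chr14:47189364-47189663 on the minus strand.
Gch1: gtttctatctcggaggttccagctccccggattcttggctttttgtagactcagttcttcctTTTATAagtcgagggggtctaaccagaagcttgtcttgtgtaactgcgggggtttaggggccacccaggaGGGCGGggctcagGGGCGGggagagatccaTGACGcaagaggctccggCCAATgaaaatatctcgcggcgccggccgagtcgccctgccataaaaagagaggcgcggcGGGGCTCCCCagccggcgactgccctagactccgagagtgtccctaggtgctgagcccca
It held 1 TGACG, 1 CCAAT, 2 GGGCGG, 1 TATAAA read on the other strand, and 1 match to the NF-kB consensus, read on both strands, which is the last run of capitals. Among 32851 promoters of the same length, TGACG was found in 20.8%, CCAAT in 37.4%, GGGCGG in 35.7%, TATAAA in 13.6% and the NF-kB consensus in 8.46%. The STAT motif and the interferon-stimulated response element, found in 8.3% and 3.44% of promoters, matched in none of the 4 windows. A match of letters describes the window and is not evidence of binding.

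Ass1 and Asl, which together turn citrulline back into arginine, moved in opposite directions. Ass1, argininosuccinate synthase, read 6.54, 6.72 and 6.76 FPKM in the WT-labelled libraries and 115, 115 and 120 in the CKO-labelled libraries (chromosome 2, 31470207 to 31520672, plus strand). That is a log2 fold change of 3.94 (limma adjusted p = 4.41e-15, SE 0.0346). Asl, argininosuccinate lyase, which completes the step, read 12.3, 12.6 and 12.4 FPKM in the WT-labelled libraries and 9.91, 9.80 and 10.5 in the CKO-labelled libraries (chromosome 5, 130011258 to 130029247, minus strand). Its difference was -0.28 (limma adjusted p = 8.62e-05, SE 0.0426). Scaling bears on a change of that size: a rescaling by the median of ratios to a mean library moved all genes by a median of 0.15 on the log2 scale, and left Asl at -0.13 (limma adjusted p = 0.0207). The Ass1 promoter window, chr2:31470020-31470319 on the plus strand, is shown with the same motifs in capitals.
Ass1: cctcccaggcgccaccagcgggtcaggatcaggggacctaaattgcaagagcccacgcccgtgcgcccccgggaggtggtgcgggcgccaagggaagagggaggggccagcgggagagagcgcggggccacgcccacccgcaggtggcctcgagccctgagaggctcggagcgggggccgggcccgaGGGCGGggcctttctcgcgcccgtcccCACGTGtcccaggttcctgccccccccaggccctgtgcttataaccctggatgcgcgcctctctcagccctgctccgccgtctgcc
It held 1 GGGCGG and 1 CACGTG, the latter found in 7.15% of promoters. None of the other motifs had a match in this window.

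Both arginases were higher in the CKO-labelled libraries, at very different levels. Arg1, the cytosolic arginase, read 0.0244, 0.050 and 0.0808 FPKM in the WT-labelled libraries, which are 1, 2 and 3 reads, and 36.0, 36.2 and 33.3 FPKM in the CKO-labelled libraries, from 1245 to 1374 reads (chromosome 10, 24915221 to 24927484, minus strand). It was barely detected in one group, and the ratio of read shares, 691, had an exact 95% binomial interval of 317 to 1885 that covers counting error only. The log2 fold change was 5.10 (limma adjusted p = 1.59e-14, SE 0.0539). Arg1 too passed the filter only through the libraries labelled CKO, so its p-value is not a test of whether it differed. Arg2, the mitochondrial arginase, read 1.25, 1.17 and 0.841 FPKM in the WT-labelled libraries and 4.41, 4.63 and 5.35 in the CKO-labelled libraries (chromosome 12, 79130777 to 79156301, plus strand). The groups were separate, with a log2 fold change of 1.48 (limma adjusted p = 2.47e-08, SE 0.0874). Arg2 rested on the fewest reads in the CKO-labelled libraries, 102 to 136 each. Of its 1428 exonic bases 285 lie over Vti1b on the opposite strand, and whether reads were counted by strand is not given in the sources used here. Vti1b read 48.4 ± 0.966 FPKM (SD, n = 3) in the WT-labelled libraries and 49.9 ± 1.88 in the CKO-labelled libraries, and its part in the level of Arg2 was not tested.

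Of the polyamine genes Odc1 rose while Srm and Sat1 fell. Odc1, ornithine decarboxylase, which makes putrescine, read 8.59, 8.44 and 8.32 FPKM in the WT-labelled libraries and 11.8, 11.4 and 13.1 in the CKO-labelled libraries (chromosome 12, 17544794 to 17551505, plus strand). Its change was 0.47 on the log2 scale (limma adjusted p = 7.56e-06, SE 0.0532), a rise of 1.43-fold in the means. Srm, spermidine synthase, read 8.62, 10.5 and 9.20 FPKM in the WT-labelled libraries and 6.42, 6.69 and 5.87 in the CKO-labelled libraries (chromosome 4, 148591503 to 148594993, plus strand). The libraries labelled WT spread more for this gene than for Odc1 and still lay above all labelled CKO, with a difference of -0.51 (limma adjusted p = 3.59e-05, SE 0.0689). Sat1, spermidine/spermine acetyltransferase, which marks polyamines for export and breakdown, was the most abundant of the 10 genes in the WT-labelled libraries (chromosome X, 155213132 to 155216449, minus strand). It read 206, 198 and 198 FPKM there and 67.5, 71.3 and 69.9 in the CKO-labelled libraries. The difference was -1.52 (limma adjusted p = 2.70e-12, SE 0.0316), 2.89-fold in the means. Its promoter window is chrX:155216400-155216699 on the minus strand.
Sat1: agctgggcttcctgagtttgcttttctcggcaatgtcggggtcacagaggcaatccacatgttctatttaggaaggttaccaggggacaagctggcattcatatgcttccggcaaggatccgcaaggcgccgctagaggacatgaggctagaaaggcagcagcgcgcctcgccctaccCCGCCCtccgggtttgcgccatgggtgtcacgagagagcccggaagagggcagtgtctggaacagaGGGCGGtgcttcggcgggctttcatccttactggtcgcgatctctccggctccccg
Of the motifs searched it held 2 GGGCGG and no other. The Odc1 window, chr12:17544623-17544922, held 4 GGGCGG and 1 TGACG, so that all 4 promoters, of genes that rose and of the one that fell, carried a GC box.

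**Figure D2:**
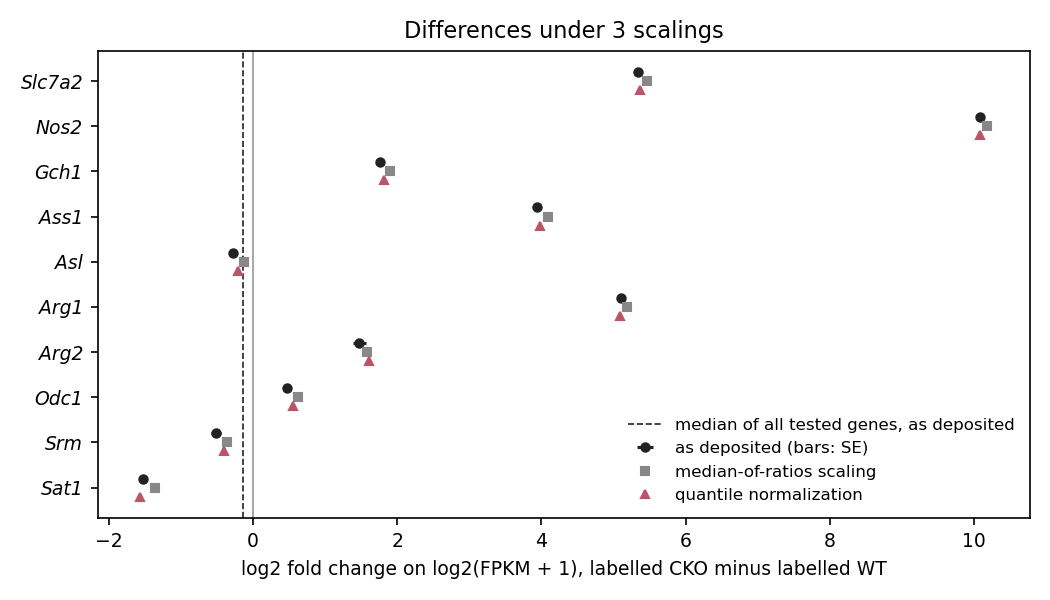
Log2 fold change on log2(FPKM + 1), labelled CKO minus labelled WT, for the 10 genes under the deposited scaling (circles, bars for SE), median-of-ratios scaling (squares) and quantile normalization (triangles), with the median of all tested genes dashed. Each gene stays on its side of 0 under these 3 scalings, with Asl nearest to it at -0.28, -0.13 and -0.20.

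The order of the 10 genes by level, which FPKM allows because it is per length, was not the same in the groups. In the WT-labelled libraries it ran from Sat1 (201 ± 4.74 FPKM; SD, n = 3 here and below) over Asl (12.4 ± 0.154), Srm (9.43 ± 0.937), Odc1 (8.45 ± 0.137), Ass1 (6.68 ± 0.115) and Gch1 (4.84 ± 0.0639) to Arg2, Slc7a2, Nos2 and Arg1. Arg2 (1.09 ± 0.219 FPKM) and Slc7a2 (1.08 ± 0.0707) did not differ beyond their spread, and the other neighbours in this order had separate ranges over the 3 libraries. In the CKO-labelled libraries the order was Nos2 (1258 ± 18.5 FPKM), Ass1 (117 ± 2.68), Slc7a2 (83.2 ± 4.43), Sat1 (69.5 ± 1.93), Arg1 (35.2 ± 1.64), Gch1 (18.7 ± 0.510), Odc1 (12.1 ± 0.897), Asl (10.1 ± 0.358), Srm (6.33 ± 0.421) and Arg2 (4.80 ± 0.490), each neighbour with a separate range.

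Plain ratios of FPKM within a library do not depend on the scaling between libraries. Ratios with 0.5 FPKM added to both genes, as plotted and tested here, can depend on it, most of all for genes near 0. Nos2 exceeded Arg1 by 34.9, 35.3 and 37.3 times in the FPKM of the libraries labelled CKO, so that synthase transcripts outnumbered those of the cytosolic arginase although both were higher there than in the other group. In the WT-labelled libraries both genes lay under 0.2 FPKM, and their ratio of 5.52, 3.51 and 2.01 rests on 1 to 3 reads of Arg1. No change of this ratio between the groups is drawn, since on the scale of log2(FPKM + 0.5) used for the plot the added 0.5 sets its value in the WT-labelled libraries. Between the arginases the order turned over: Arg2 was the higher of the pair in all 3 libraries labelled WT, and Arg1 exceeded Arg2 by 8.15, 7.82 and 6.22 times in the CKO-labelled libraries. The plain Arg2 to Arg1 ratios in the WT-labelled libraries, 51.5, 23.4 and 10.4, again rest on 1 to 3 reads of Arg1. No test of this ratio is drawn either, since Arg1 passed the filter only through the libraries labelled CKO. The recycling pair turned over too, with Ass1 at 0.531, 0.533 and 0.547 times the level of Asl in the WT-labelled libraries and at 11.6, 11.7 and 11.4 times in the CKO-labelled libraries. Sat1 exceeded Odc1 by 24.0, 23.5 and 23.8 times in the WT-labelled libraries and by 5.74, 6.23 and 5.32 times in the CKO-labelled libraries. For the Ass1 to Asl and Odc1 to Sat1 ratios the groups were separate on the scale with 0.5 FPKM added. A two-sided exact permutation test gave p = 0.1 for each (0.1 also after adjustment over the 4 ratios computed), the smallest that 3 against 3 libraries allow.

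**Figure D3:**
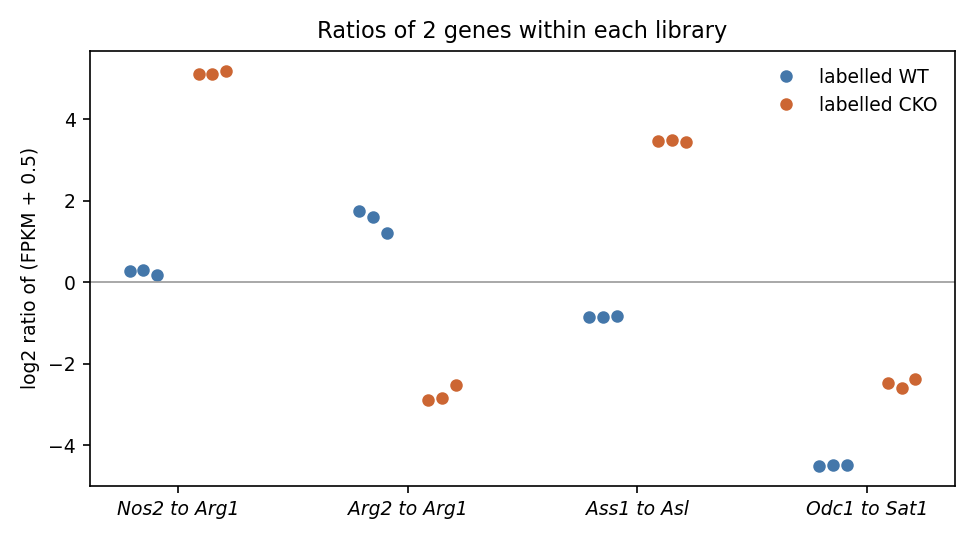
Log2 of the ratio of (FPKM + 0.5) between 2 genes in each library, for 4 pairs (blue, labelled WT; orange, labelled CKO). The Arg2 to Arg1 and Ass1 to Asl ratios lie on opposite sides of 0 in the groups, and the groups do not overlap. The Nos2 to Arg1 points of the libraries labelled WT lie near 0 through the added 0.5, with plain ratios of 2.01 to 5.52. The added 0.5 also lowers the Arg2 to Arg1 points of those libraries, with plain ratios of 10.4 to 51.5.

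Another 61 genes of the pathway were taken from 5 lists, of which 41 passed the filter. Of these 11 (26.8%) were higher and 26 (63.4%) lower in the CKO-labelled libraries and 4 were not called, with a median log2 fold change of -0.25. Among the lower genes Prkg1, Slc18b1, Dohh and Sat2 passed the filter only through the libraries labelled WT. Azin2, among the higher, passed only through the libraries labelled CKO. The direction of these genes was thus set by the filter. Over all tested genes 30.5% were higher and 50.5% lower, with a median of -0.14. After median-of-ratios scaling 14 were higher and 18 lower, and after quantile normalization 13 and 21. Those scalings called 39.7% and 35.9% of all tested genes higher and 39.8% and 43.5% lower.

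The other transporter genes moved by less than Slc7a2. The other synthases were hardly detected: Nos1 and Nos3, the neuronal and endothelial forms, read at most 0.0157 and 0.0272 FPKM in any library. Of 7 tested genes in the list of synthases and transporters 3 were higher, 2 lower and 2 not called (30.5% higher and 50.5% lower over all tested genes). After either rescaling 5 were higher and 1 lower, beside 39.7% and 35.9% higher and 39.8% and 43.5% lower over all tested genes. Slc3a2, the heavy chain shared by several amino acid transporters, rose from 57.0 ± 1.39 to 129.6 ± 1.68 FPKM (log2 fold change 1.17, limma adjusted p = 1.55e-11). Slc7a1, the general arginine importer CAT1, rose from 1.37 ± 0.0164 to 1.84 ± 0.0776 FPKM (0.26, limma adjusted p = 0.00152), well below the level Slc7a2 reached. The exchangers Slc7a6 and Slc7a7 were not called, at 0.10 and 0.03 (limma adjusted p = 0.109 and 0.524), though both were higher after either rescaling. The nitric oxide synthase interacting protein Nosip rose by 0.84 and Nostrin, which binds the endothelial synthase, fell by 0.83 on the log2 scale (limma adjusted p = 1.10e-08 and 1.99e-08). Ddah2, of the dimethylarginine dimethylaminohydrolase family, fell by 0.25 (limma adjusted p = 0.0197), but was not called after either rescaling (limma adjusted p = 0.193 and 0.436).

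Of 4 other tetrahydrobiopterin genes tested beside Gch1, 3 were lower and 1 higher in the CKO-labelled libraries, beside 50.5% lower and 30.5% higher over all tested genes. After either rescaling 2 were lower and 1 higher, beside 39.8% and 43.5% lower and 39.7% and 35.9% higher over all tested genes. Qdpr, which regenerates the cofactor, fell from 13.9 ± 0.810 to 5.64 ± 0.341 FPKM (log2 fold change -1.17, limma adjusted p = 3.63e-09). Pts, the second enzyme of its synthesis, fell from 5.01 ± 0.337 to 3.23 ± 0.129 FPKM (-0.50, limma adjusted p = 9.62e-06). Spr, the last enzyme, was higher by 0.12 (limma adjusted p = 0.0395), and Pcbd2 was lower by 0.27 (limma adjusted p = 0.00552), a call lost after median-of-ratios scaling (0.0995) and quantile normalization (0.111). Gchfr, the feedback regulator of the Gch1 enzyme, stayed under 0.75 FPKM in all 6 libraries and was not tested.

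Genes that respond to nitric oxide or remove it also went both ways, with 2 higher and 2 lower of 4 tested, beside 30.5% and 50.5% over all tested genes. Pde5a, which breaks down cyclic GMP, rose from 1.83 ± 0.125 to 5.18 ± 0.259 FPKM (log2 fold change 1.13, limma adjusted p = 8.92e-09). Adh5, which reduces S-nitrosoglutathione, rose from 15.6 ± 0.847 to 18.6 ± 0.0463 FPKM (0.24, limma adjusted p = 4.56e-04). Gucy1b1, the beta subunit of the nitric oxide receptor guanylate cyclase, fell from 2.76 ± 0.237 to 1.76 ± 0.136 FPKM (-0.45, limma adjusted p = 8.86e-05). Prkg1, a protein kinase driven by cyclic GMP, fell from 1.21 ± 0.121 to 0.106 ± 0.0422 FPKM (-0.99, limma adjusted p = 1.10e-07), and it passed the filter only through the libraries labelled WT.

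In the list of urea cycle, ornithine, proline and creatine genes 2 of 9 tested were higher and 6 lower, beside 30.5% and 50.5% of all tested genes. After median-of-ratios scaling 3 were higher and 4 lower, beside 39.7% and 39.8% of all tested genes. After quantile normalization 2 were higher and 4 lower, beside 35.9% and 43.5%. Cps1 and Otc, the first enzymes of the hepatic urea cycle, read at most 0.0153 FPKM in any library. Azin2, which encodes an antizyme inhibitor related to ornithine decarboxylase, went from 0.281 ± 0.0145 to 2.34 ± 0.202 FPKM (log2 fold change 1.38, limma adjusted p = 3.47e-09), and passed the filter only through the libraries labelled CKO. Gatm, which uses arginine for the first step of creatine synthesis, rose from 7.81 ± 0.469 to 14.5 ± 1.25 FPKM (0.81, limma adjusted p = 2.80e-07). Its partner Gamt fell from 8.56 ± 0.494 to 4.22 ± 0.252 FPKM (-0.87, limma adjusted p = 6.75e-08). Oat, which turns ornithine toward proline and glutamate, fell from 35.3 ± 1.66 to 21.0 ± 1.24 FPKM (-0.73, limma adjusted p = 8.46e-08).

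Most of the remaining polyamine genes were lower in the CKO-labelled libraries. Of 17 tested 13 were lower, 3 higher and 1, Mtap, not called, beside 50.5% lower and 30.5% higher over all tested genes. Among the lower genes Slc18b1, Dohh and Sat2 passed the filter only through the libraries labelled WT and so had to read lower in the others. Sat2 was not called after median-of-ratios scaling or quantile normalization (limma adjusted p = 0.13 and 0.322). After median-of-ratios scaling and quantile normalization 9 and 12 of the 17 were lower, beside 39.8% and 43.5% over all tested genes. Mat2a, which makes the methyl donor S-adenosylmethionine, fell from 30.1 ± 1.07 to 14.6 ± 0.914 FPKM (log2 fold change -1.0, limma adjusted p = 4.35e-09). Among genes for breakdown the oxidases split: Smox, spermine oxidase, rose from 11.8 ± 0.751 to 29.6 ± 0.712 FPKM (1.26, limma adjusted p = 4.30e-10), and Paox, which oxidises the acetylated polyamines that Sat1 makes, fell from 4.85 ± 0.302 to 1.32 ± 0.126 FPKM (-1.34, limma adjusted p = 4.24e-09). Sat1 and Paox, consecutive steps, were thus both lower. Atp13a3, a polyamine transporter, fell from 16.5 ± 0.397 to 6.11 ± 0.226 FPKM (-1.30, limma adjusted p = 1.81e-10). The other higher genes were Eif5a, the translation factor that carries the spermidine-derived residue hypusine, at 0.42, and Dhps, the first enzyme of that modification, at 0.22 (limma adjusted p = 1.02e-07 and 0.00363).

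**Figure D4:**
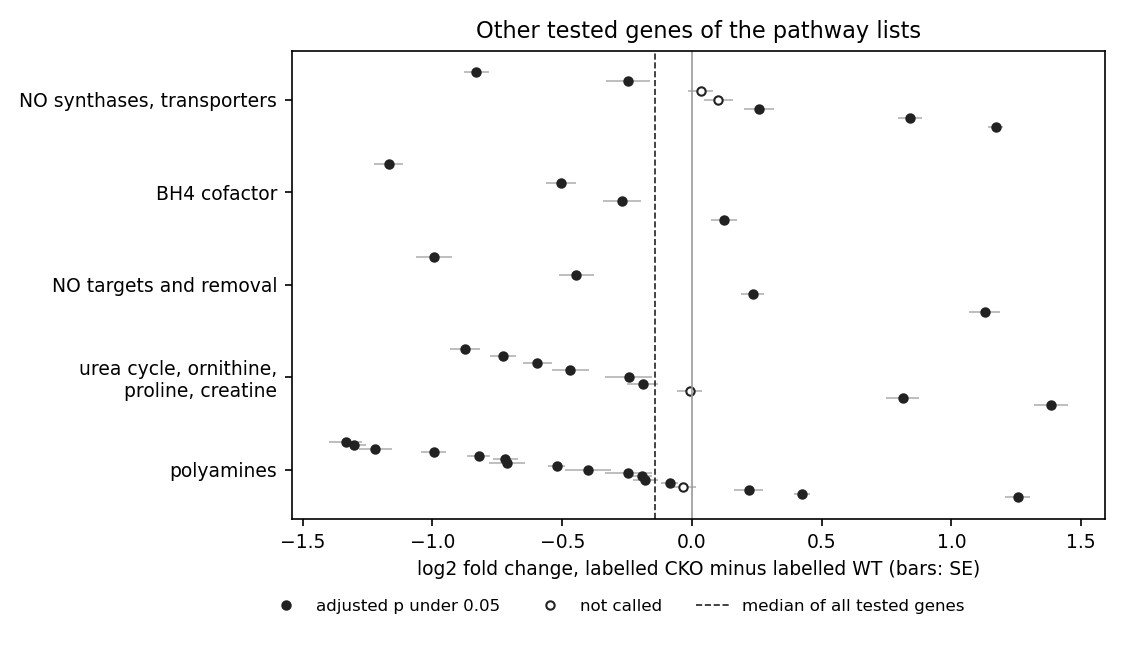
Log2 fold change (labelled CKO minus labelled WT, bars for SE) of the 41 tested genes of the 5 pathway lists, filled where the limma adjusted p was under 0.05 and open otherwise, with the median of all tested genes dashed. Most polyamine genes lie left of 0, with Smox at 1.26 the farthest to the right in that list.

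Genes outside these lists whose profile lay nearest to that of Nos2 or Arg1 were named by the distance between log2(FPKM + 1) profiles over the 6 libraries, each centred on its own mean. Over so few libraries the distance is set almost wholly by the difference between the groups. Nearest to Nos2 were Saa3, an acute-phase gene, Ccl5, a chemokine, and Il1b, a cytokine, at distances of 0.670, 1.15 and 2.27. Nearest to Arg1 were the interferon-responsive genes Ifi206, Rsad2 and Oasl1, at 0.228, 0.252 and 0.272. Ifi206 went from 1.59 ± 0.287 to 88.7 ± 1.74 FPKM and Oasl1 from 6.09 ± 0.301 to 264 ± 16.3. The likeness to Arg1 was measured on this scale alone, where the added 1 FPKM sets the change of a gene near 0: in the ratio of mean FPKM Arg1 differed by 680-fold and these 3 genes by 42.8-fold to 55.8-fold. For Nos2 the ratio of means was 7988, and for its 3 neighbours 728 to 886.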

How the data were processed

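The authors deposited 1 table of FPKM values per library, per the file headers, with 21936 genes each. Per the submitters' processing notes, the tools, listed with no role or order, included HISAT2 2.1.0, featureCounts 1.6.2, fastp 0.19.3, Cufflinks and StringTie 1.3.4d, and the build was mm10. Libraries were made with a stranded mRNA kit, per the labels' protocols. Groups and replicate numbers came from the sample titles. FPKM times listed length gave whole multiples of 1 step for 100% of values within 0.01 reads, so reads were recovered for depth, intervals and 1 alternative test. Pairs of libraries differed by 2.16 to 3.18 times counting noise within groups (chi-square per degree of freedom, genes with at least 20 reads in the pair) and by 404 to 449 between groups, so none was counted as a duplicate.

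For 9953 genes that reached 1 FPKM in 3 or more libraries, log2(FPKM + 1) was fitted on group alone in limma 3.58.1 (R 4.3.3, lmFit and eBayes with trend), with p-values adjusted by Benjamini-Hochberg over all tested genes and called under 0.05. The limma step was tested on simulated data, where it called 88% of 50 genes changed 1.3-fold and 100% of 50 changed 2-fold. Unchanged genes made up 5.03% of the calls. Far fewer genes were changed there than were called in these libraries, so the outcome may not carry over to them. Other steps used Python 3.11.15 with numpy 2.4.6, pandas 2.3.3 and scipy 1.17.1. Exon structure came from GENCODE, with the same gene spans as the tables for all 10 genes. The genes and lists were chosen with earlier results of these data known. Named from each list were up to 4 tested genes with the smallest p and genes needed to state a count. Called genes that passed the filter through 1 group alone were named too, as were the 3 nearest profiles to Nos2 and to Arg1. Genes named as not tested (Nos1, Nos3, Gchfr, Cps1 and Otc) were chosen after their values were seen. A result on 1 gene of the lists is not reported here.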

Additional observations from a re-analysis of the deposited data

How the results depend on the processing

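The direction and call of the 10 genes held under every alternative that could test them: quantile normalization, median-of-ratios scaling, 0.1 or 0.5 FPKM added in place of 1, limma voom on recovered reads, array weights, no trend, the replicate block, all genes tested or those averaging 5 FPKM, an adjusted p under 0.01, and each library left out with the filter applied again or the tested genes held. That covers 223 tests of a gene under an alternative, and 7 more could not be made. Nos2 and Arg1 are included, though the main filter left them bound to differ. Arg2 fell below a mean FPKM of 5, and Nos2 and Arg1 left the test without any 1 library labelled CKO when the filter was applied again, so that 5 to 7 genes were called higher and 3 lower with 1 library left out. With 0.1 FPKM added Nos2 rose by 12.3, Arg1 by 7.88 and Arg2 by 2.06. Over all alternatives they rose by 10.1 to 12.9, 5.08 to 9.21 and 1.39 to 2.13, with the highest values from limma voom. Asl ranged from -0.31 to -0.13 (limma adjusted p at most 0.0207) and Odc1 from 0.42 to 0.62. At a mean of 5 FPKM or more, where fewer were tested, 13 pathway list genes and 3185 of all genes were called lower, against 26 and 5031. With 1 library left out 9 to 11 pathway list genes were higher and 19 to 25 lower, beside 2634 to 2961 and 4402 to 4952 of all tested genes. The number of genes tested changed where the filter was applied again, so these counts are not shares. Same-numbered libraries did not deviate together (correlations of -0.0388 to 0.0188, and not every library correlated best with its own number). With the replicate block 7 genes were higher and 3 lower, 11 and 26 pathway list genes, and 3018 and 5023 of all genes. Limma voom called 3028 genes higher and 5064 lower. Adding 0.1 instead of 0.5 FPKM changed the difference in the log2 Arg2 to Arg1 ratio from -4.27 to -5.82. Depth limits Arg1 and Nos2 in the libraries labelled WT, with 6 and 37 reads in all.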
